A study of Mus musculus with 2 samples.

Results

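The 37 genes described here encode the machinery by which proteins enter, fold in and leave the endoplasmic reticulum (ER), with the sensors and transcription factors of the ER stress response. They were listed by gene symbol and not by their values, though with earlier results of these data known. All 37 were found among the 31053 genes of each library. By role, 10 act in translocation into the ER, 9 are folding chaperones or their partners, 2 are lectin chaperones, 4 are disulfide isomerases, 6 are stress sensors or transcription factors, and 6 act in ER-associated degradation.

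Natural killer (NK) cells are cytotoxic lymphocytes, and here they had been sorted from mouse brain by flow cytometry and read with 10x Genomics Chromium chemistry at the 5′ end of transcripts. The wildtype library came from healthy C57BL/6 females aged 8 months, and the other library from 3XTg-AD females of the same age; neither group was treated. 3XTg-AD is a transgenic model of Alzheimer's disease with mutant human APP and tau transgenes under a neuronal Thy1 promoter and a mutant presenilin. Each group has 1 library. How many mice each library held, whether they were pooled, and what background the transgenic line had: not given in the sources used here. All differences below therefore describe these libraries, with no replicate check and no p-value, and each interval covers counting error only.

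Secreted and membrane proteins enter the ER through the Sec61 channel, lose their signal peptide to the signal peptidase complex, and are folded by Hspa5 (BiP), Hsp90b1 (GRP94), the lectins Calr and Canx, and the protein disulfide isomerases. Unfolded protein is sensed by IRE1 (Ern1), PERK (Eif2ak3) and ATF6 (Atf6), which act through spliced XBP1, through ATF4 and CHOP (Ddit3), and through cleaved ATF6. Cytotoxic lymphocytes make granzymes and perforin on this route, so Gzmb (granzyme B) and Prf1 (perforin) served as measures of secretory load. Gene counts do not tell spliced from unspliced Xbp1, and they do not show cleavage of ATF6 or phosphorylation by PERK.

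A barcode was called NK with at least 3 unique molecular identifiers (UMIs) summed over Ncr1, Klrb1c, Klre1, Klrk1 and Eomes, and ILC1-like with at least 3 summed over Itga1, Cxcr6, Inpp4b, Gzmc and Tnfsf10. ILC1 are tissue-resident innate lymphocytes related to NK cells. This gave 1472 wildtype and 1517 3XTg-AD NK barcodes, with medians of 2883 and 2795 UMIs, and 99 and 79 ILC1-like barcodes. The ILC1-like barcodes were deeper, with medians of 5453 and 5559 UMIs, and still held medians of 14 and 21 UMIs of the NK list. At the edge of the gate, 40 wildtype and 29 3XTg-AD barcodes had 2 gate UMIs and 21 and 23 had exactly 3; the 37 genes summed to 4940 and 4563 UMIs per 1000000 (CPM) in the first and 4337 and 4761 CPM in the second. Barcodes with 3 or more UMIs of T cell, B cell, microglial or other brain cell markers had been left out of both classes, and ILC1-like barcodes out of the NK class. In the remaining NK barcodes the T cell list summed to 31.5 and 18.7 CPM with Cd5 at 0, and the microglia and macrophage list to 1.96 and 6.87 CPM. The erythroid list stood at 17.6 CPM in wildtype, from 5 of 5 genes, and 0.215 CPM in 3XTg-AD, and the neutrophil list at 0 and 6.65 CPM, from 0 and 4 of 6 genes. The libraries shared 1 barcode sequence, which was kept in both.

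Many ER folding genes carry the ER stress response element, ERSE, in their promoters, to which ATF6 and XBP1 are known to bind. It was searched as CCAAT, any 9 bases, then CCACG, on both strands, in the 250 bases before each RefSeq start. RefSeq promoters (GRCm38.p6) were available for 30 of the 37 genes, at 31 starts. ERSE was present at 8 starts, those of Hspa5, Hsp90b1, Dnajc3, Creld2, Calr, Canx, Pdia6 and Syvn1. Over all promoters in the table, 37 of 32851 (0.113%) held it. Hyou1, Manf, Atf6, Derl1, Sec61a1, Ssr2 and Spcs3 had no entry. The windows are shown because they hold the elements found among these promoters, those of Hspa5, Pdia6 and Calr included, whose values recur below; the capitals mark the CCAAT and CCACG boxes, or CGTGG and ATTGG where the element lies on the other strand, and each line reads 5′ to 3′ on the gene's own strand.
Hspa5, chr2:34772020-34772048, plus strand: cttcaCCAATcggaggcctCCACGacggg
Pdia6, chr12:17266486-17266514, plus strand: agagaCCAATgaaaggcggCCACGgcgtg
Hsp90b1, chr10:86705633-86705661, minus strand: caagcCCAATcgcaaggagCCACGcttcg
Hsp90b1, chr10:86705528-86705556, minus strand: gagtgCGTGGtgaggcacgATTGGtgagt
Calr, chr8:84847070-84847098, minus strand: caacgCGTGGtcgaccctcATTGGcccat
Canx, chr11:50325795-50325823, minus strand: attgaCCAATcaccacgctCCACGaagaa
Creld2, chr15:88819515-88819543, plus strand: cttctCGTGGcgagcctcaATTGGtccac
Dnajc3, chr14:118937822-118937850, plus strand: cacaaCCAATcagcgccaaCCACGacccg
Syvn1, chr19:6046527-6046555, plus strand: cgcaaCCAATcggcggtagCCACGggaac
The element began between 44 bases (Syvn1) and 212 bases (Hsp90b1) before the start, and Hsp90b1 held 2 copies. The Hspa5 window lies inside the interval that GENCODE M21 gives that gene, and the other windows lie upstream of theirs. The single boxes were common: CCACG was present in 28.3% of all promoters and CCAAT in 33.8%, and 21 and 24 of the 30 genes held them. Both boxes are parts of ERSE and were counted again there. A match is a description of these letters and not of binding.

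In NK barcodes the translocation genes made up the most abundant group, with 2353 CPM in wildtype and 2319 CPM in 3XTg-AD over 10 genes. A 5′ UMI counts each molecule once, so levels were compared between genes without dividing by length. The channel subunits Sec61g and Sec61b led this group. Sec61g stood at 586 and 524 CPM in wildtype and 3XTg-AD, and Sec61b at 527 and 526 CPM. Sec61a1, the pore-forming subunit, stood at 97.8 and 111 CPM. The other translocation genes ran from 63.7 and 63.1 CPM for Ssr1, of the translocon-associated complex, to 283 CPM for Ssr4 in wildtype and 290 CPM for Spcs1, of signal peptidase, in 3XTg-AD. Between them lay Ssr2, Ssr3, Spcs2 and Spcs3.

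Hsp90b1, the ER member of the HSP90 family, was the folding chaperone with the most UMIs, at 442 and 558 CPM. Hspa5, the ER member of the HSP70 family, stood at 230 and 274 CPM. Dnajc3 and Dnajb11, J-domain partners of Hspa5, stood at 219 and 217 CPM and at 136 and 134 CPM. Manf, a stress-induced protein that binds Hspa5, stood at 173 and 172 CPM. The rest of this group lay lower, from 86.1 and 91.2 CPM for Sdf2l1 and 69.8 and 84.3 CPM for Creld2 down to 28.9 and 30.03 CPM for Dnajb9 and 23.7 and 21.0 CPM for Hyou1. Dnajb9 and Hyou1 are a J-domain protein and a nucleotide exchange factor for Hspa5.

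Among the isomerases Pdia3, the partner of the lectin chaperones, was highest at 254 and 301 CPM, and Pdia4 lowest at 75.4 and 83.2 CPM. P4hb, also a subunit of prolyl hydroxylase, stood at 176 and 219 CPM, and Pdia6 at 136 and 178 CPM. The lectins Calr and Canx stood at 140 and 128 CPM and at 117 and 116 CPM. Eif2ak3, the PERK gene, was the lowest of all 37, at 6.74 CPM (95% interval 4.58 to 9.56) in wildtype and 8.80 CPM (6.31 to 11.9) in 3XTg-AD. The other sensors lay between 20.8 and 37.4 CPM, and Ddit3, the CHOP gene, at 27.2 and 26.4 CPM. The transcription factor genes Atf4 and Xbp1 were higher, at 131 and 127 CPM and at 83.4 and 98.5 CPM. In degradation, Derl1 and Herpud1 led with 122 and 131 CPM and with 99.3 and 106 CPM, while the ligase Syvn1 stood at 19.3 and 23.8 CPM. Sel1l, Edem1 and Derl2 lay between them. In barcodes thinned to 1400 UMIs, 55.0% of wildtype NK barcodes held a UMI of Sec61g and 0.734% one of Eif2ak3; these genes serve every cell, so no class in the libraries gives a background for these shares.

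**Figure D1:**
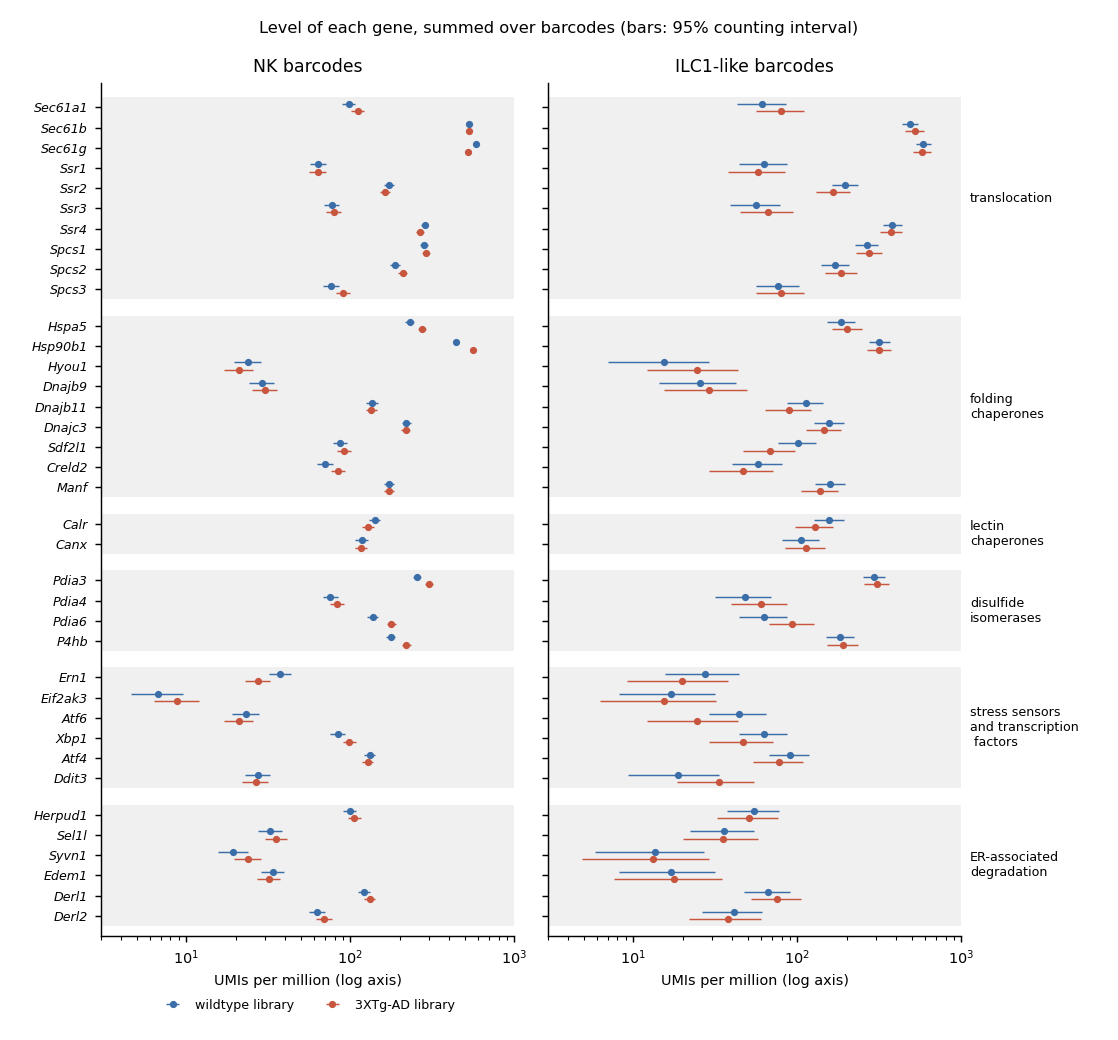
Level of each of the 37 genes in CPM (log axis), summed over the NK barcodes (left) and ILC1-like barcodes (right) of each library, with 95% counting intervals. Sec61g and Sec61b lie at 486 or above and Eif2ak3 at 17.0 or below in both classes of both libraries, while Hsp90b1 is highest of all in the NK barcodes of 3XTg-AD, at 558.

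The question of the series is how NK cells of the 2 lines differ, and for these genes the libraries lay close. None of the 36 genes with at least 100 UMIs differed by 1.5-fold in NK barcodes. Over all 7216 genes with that minimum, 3.52% were at least 1.5-fold higher in 3XTg-AD and 2.47% at least 1.5-fold lower. The median log2 ratio was 0.05 for the 36 genes and 0.05 for all genes, and the ratios ran from 0.729 to 1.30. Eif2ak3, at 31 and 41 UMIs, was under the minimum.

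The counting interval lay above 1 for 9 genes and below 1 for 2. Pdia6, an isomerase that also binds IRE1, had 136 CPM in wildtype and 178 CPM in 3XTg-AD, a ratio of 1.30 (95% interval 1.17 to 1.45). Hsp90b1 was at 1.26 (1.19 to 1.34), P4hb at 1.25 (1.14 to 1.37) and Hspa5 at 1.19 (1.10 to 1.29). Pdia3, Creld2, Xbp1, Spcs2 and Spcs3 were the other 5, with ratios from 1.11 to 1.21. Ern1, the IRE1 gene, had 172 and 127 UMIs, or 37.4 and 27.2 CPM, a ratio of 0.729 (0.575 to 0.922). Sec61g was at 0.895 (0.847 to 0.946). The 4 isomerases all lay above 1, at a median ratio of 1.22, and the 10 translocation genes at 1.01. Of the other 136 ER genes in 6 lists, 105 were measured with a median of 1.07, and none passed 1.5-fold.

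Other gene groups moved between the libraries beside these. The heat shock list (8 genes, all detected) summed to 889 CPM in wildtype and 1553 CPM in 3XTg-AD NK barcodes, and the interferon list to 382 and 151 CPM. Gzmb itself stood at 3022 and 1579 CPM, and Prf1 at 1326 and 1249 CPM. Their part in the small ratios above was not tested. Without barcodes that held a UMI of Hspa1a or Hspa1b, 0 of 36 genes again passed 1.5-fold, with a median log2 ratio of 0.04.

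The clearest pattern lay within each library, along Gzmb. NK barcodes of at least 1400 UMIs were thinned to 1400 and split by their Gzmb UMIs at the quartiles. In wildtype, 447 barcodes with 0 UMIs were set against 389 with 4 or more, and in 3XTg-AD, 487 with 0 against 436 with 3 or more. The sums used all UMIs. Genes of ER folding were higher in the Gzmb-high barcodes of both libraries, and genes of translocation and degradation had median ratios of 1.21 and 1.22 in wildtype and 1.13 and 1.15 in 3XTg-AD.

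In wildtype, 13 of the 28 genes measured were at least 1.5-fold higher in Gzmb-high barcodes and 0 lower, where 6.56% of 3707 genes were higher and 6.15% lower. The median log2 ratio was 0.47 against 0.01 for all genes. In 3XTg-AD, 6 of 30 were higher and 0 lower, where 2.42% of 4014 genes were higher and 3.74% lower, and the median was 0.28 against 0.01. The 15 folding, lectin and isomerase genes held most of these: of 13 measured, 10 passed in wildtype and 5 in 3XTg-AD. Hspa5, Manf, Calr and Pdia6 passed in both libraries, which is 4 of the 13 and 4 of the 6. The share of all genes that passed in both is not given here. In GENCODE M21 (mm10) the 4 genes lie at chr2:34771970-34777547 on the plus strand, chr9:106838312-106891979 and chr8:84841850-84846934 on the minus strand, and chr12:17266545-17284770 on the plus strand.

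Hspa5 rested on 235 UMIs (170 CPM) in Gzmb-low and 442 UMIs (324 CPM) in Gzmb-high wildtype barcodes, a ratio of 1.90 (1.62 to 2.24). In 3XTg-AD it went from 208 to 330 CPM, a ratio of 1.59 (1.38 to 1.84). Pdia6 went from 104 to 185 CPM in wildtype and from 128 to 227 CPM in 3XTg-AD, with a ratio of 1.77 in each (1.44 to 2.19 and 1.48 to 2.12). The high set begins at a different number of Gzmb UMIs in each library, so its levels are not matched between them.

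Manf went from 131 to 238 CPM in wildtype and from 131 to 203 CPM in 3XTg-AD, ratios of 1.81 (1.51 to 2.19) and 1.54 (1.28 to 1.86). Calr went from 105 to 195 CPM and from 102 to 154 CPM, ratios of 1.85 (1.51 to 2.28) and 1.503 (1.22 to 1.86). Calr binds calcium and, with Canx, holds glycoproteins until they fold. The Gzmb-low levels of both genes were close between the libraries.

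Sdf2l1, a partner of Dnajb11 that keeps clients soluble, had the widest ratio in wildtype, from 50.1 to 116 CPM or 2.31 (1.73 to 3.12). In 3XTg-AD it was at 1.37 (1.05 to 1.77). Xbp1 went from 58.8 to 120 CPM in wildtype, a ratio of 2.05 (1.56 to 2.70), and from 90.0 to 108 CPM in 3XTg-AD, a ratio of 1.20 (0.948 to 1.52). Canx was at 1.95 (1.54 to 2.47) in wildtype and 1.22 (0.982 to 1.52) in 3XTg-AD. Pdia4, Creld2, Hsp90b1, Ssr1, Spcs3 and Pdia3 also passed in wildtype, at ratios from 1.503 to 1.75. Whether the libraries differ in these ratios has no test here.

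Dnajb11 and the degradation gene Edem1 passed in 3XTg-AD alone, at 1.53 (1.25 to 1.89) and 1.62 (1.07 to 2.47). Dnajb11 was at 1.38 in wildtype, and Edem1 had too few UMIs there. Atf4, the PERK-branch factor, lay on opposite sides of 1, with 1.37 (1.11 to 1.69) in wildtype and 0.944 (0.767 to 1.16) in 3XTg-AD. Herpud1 had ratios of 0.996 (0.779 to 1.27) and 1.09 (0.863 to 1.38). Among the abundant genes Spcs1 was at 1.01 and 1.02 and Sec61b at 1.07 and 1.09. Hyou1, Dnajb9, Ern1, Eif2ak3, Atf6, Ddit3 and Syvn1 were under 100 UMIs in both libraries and are not counted, and neither are Sel1l and Edem1 in wildtype. The count in 3XTg-AD was 3 with thinned sums, with classes from Leiden clusters or among barcodes of 2000 to 4000 UMIs.

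**Figure D2:**
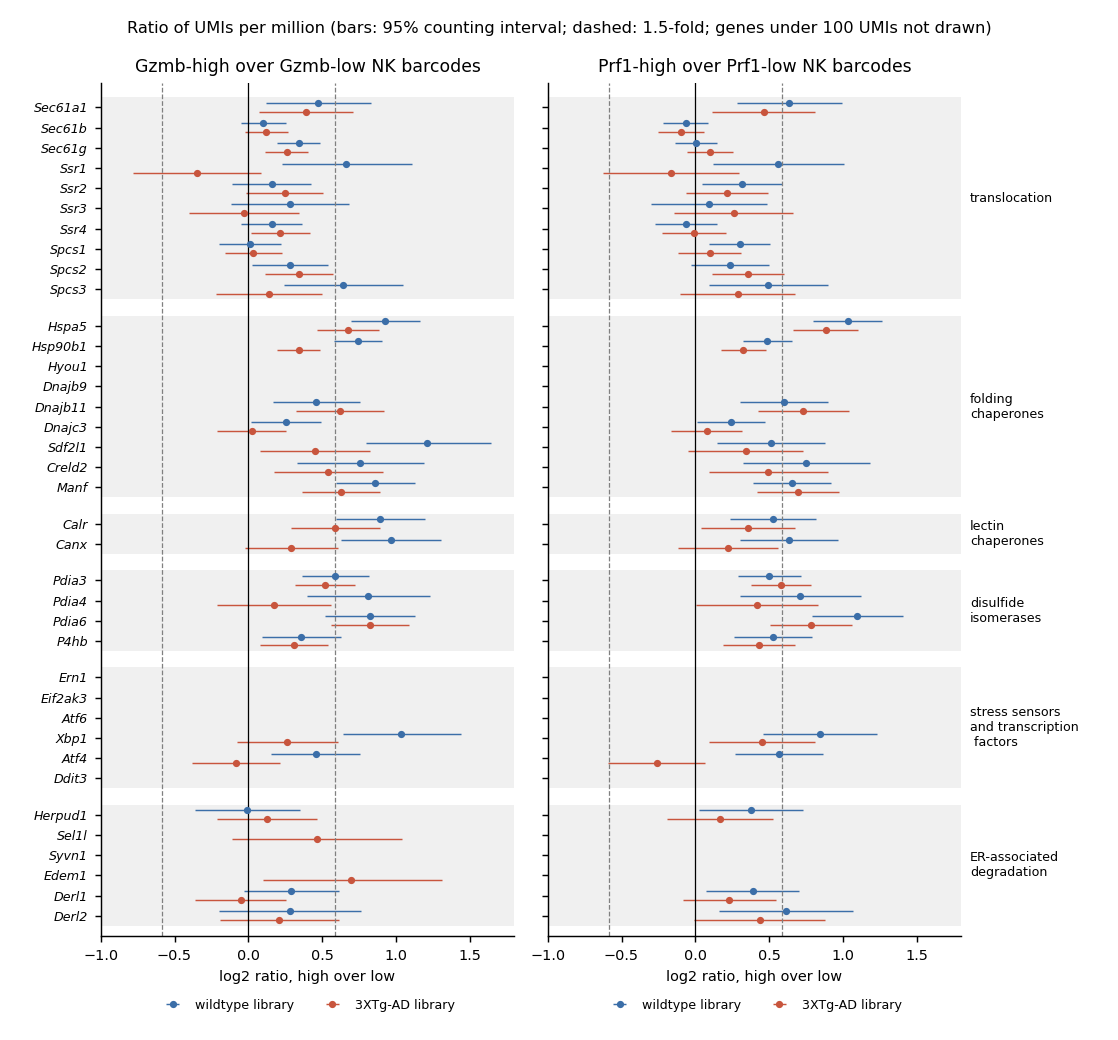
The log2 ratio of high over low NK barcodes, split on Gzmb UMIs (left) or Prf1 UMIs (right), for each gene in each library, with 95% counting intervals and dashed lines at 1.5-fold. Hspa5, Manf and Pdia6 lie past the right dashed line in all 4 comparisons, and Sec61b lies near 0.

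The same split on Prf1 gave 10 of 28 genes higher and 0 lower in wildtype, where 5.71% of 3696 genes were higher and 4.25% lower. In 3XTg-AD it gave 4 of 28 higher and 0 lower, where 3.42% of 3627 genes were higher and 2.67% lower. Medians were 0.52 and 0.33 on the log2 scale, against 0.06 and 0.05 for all genes. The 4 genes of 3XTg-AD, Hspa5, Dnajb11, Manf and Pdia6, were all among the 10 of wildtype. For this split too, the share of all genes that passed in both libraries is not given. The Gzmb and Prf1 splits use the same barcodes and overlap, so they are not independent of each other.

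Hspa5 went from 162 CPM in Prf1-low to 331 CPM in Prf1-high barcodes of wildtype, a ratio of 2.04 (1.74 to 2.40), and from 201 to 370 CPM in 3XTg-AD, 1.84 (1.58 to 2.15). Pdia6 was at 2.13 (1.73 to 2.65) and 1.72 (1.42 to 2.09). Sec61a1, Creld2, Canx, Pdia4, Xbp1 and the derlin gene Derl2 passed in wildtype and not in 3XTg-AD, at ratios from 1.53 to 1.79, and stood from 1.16 to 1.41 in 3XTg-AD. Sec61b, Sec61g and Ssr4 stood from 0.934 to 1.07 in both libraries. These counts moved with the settings: wildtype gave 6 with the median ratio of all genes set to 1 and 2 with a wider split at the tertiles. 3XTg-AD gave 8 with a minimum of 20 UMIs or none, 0 at the tertiles and 1 with another random thinning.

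The count of genes past 1.5-fold in wildtype was lower when a group of barcodes was left out. A cluster led by Gadd45g, Gzmb, Klra5, Myc and Socs1 held 136 of the 389 Gzmb-high wildtype barcodes (35.0%) and 7 of the 447 Gzmb-low (1.57%), but 8 of the 436 Gzmb-high barcodes of 3XTg-AD (1.83%). For the comparison without this cluster the quartiles were taken again on the barcodes left, so the high sets can begin at fewer UMIs. The changes in count therefore mix the loss of the cluster with a changed split, and their parts were not tested. Without the cluster, 7 of the 13 genes remained past 1.5-fold in wildtype: Sdf2l1, Creld2, Manf, Calr, Canx, Pdia3 and Xbp1. Over all genes 3.68% were then higher. Hspa5 was then at 1.47, Pdia6 at 1.43 and Hsp90b1 at 1.43, and the median log2 ratio of the 28 genes was 0.32, with 27 of 28 above 1. For Prf1 in wildtype 2 of the 10 remained, Hspa5 and Pdia6, with a median of 0.37. They were 2 of 29 genes measured, where 3.91% of all genes were higher, so this count is near the background. In 3XTg-AD, 3 of the 6 Gzmb genes remained (Hspa5, Manf and Pdia6) and 4 of the 4 Prf1 genes, although the cluster held few of those barcodes. There 29 and 28 genes were measured, and 2.19% and 3.72% of all genes were higher. Calr and Dnajb11 were then just under 1.5-fold, both at 1.49, and Edem1, at 1.61, had too few UMIs to be counted.

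Other measures moved along the Gzmb split too. The interferon list stood at 239 CPM in Gzmb-low and 664 CPM in Gzmb-high wildtype barcodes, and at 165 and 149.8 CPM in 3XTg-AD. The heat shock list went from 757 to 1014 CPM in wildtype and from 1272 to 1715 CPM in 3XTg-AD. The median share of ribosomal protein UMIs was lower in Gzmb-high barcodes, at 15.8% against 20.2% in wildtype and 14.5% against 17.9% in 3XTg-AD. Median depth was 2757 and 3227 UMIs in wildtype, and 2790 and 2953 in 3XTg-AD. Without the interferon-high barcodes the counts stayed at 13 and 6, and without those holding Hspa1a or Hspa1b they were 13 and 4. Among barcodes of 2000 to 4000 UMIs the count was 13 of 27 in wildtype. From Prf1-low to Prf1-high, a list of dividing-cell genes went from 395 to 83.3 CPM in wildtype and from 404 to 265 CPM in 3XTg-AD. The heat shock list went from 823 to 970 CPM and from 1305 to 1950 CPM. Ribosomal shares went from 20.6% to 15.5% and from 17.8% to 14.0%. Without dividing barcodes the Prf1 counts were 13 and 5 of 28, where 6.33% and 3.81% of all genes were higher. The part of these measures in the ratios was not tested.

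By steps of Gzmb, the 9 folding chaperones summed to 1131 CPM in wildtype barcodes with 0 UMIs, 1275 with 1 to 2, 1491 with 3 to 5 and 1972 (1882 to 2065) with 6 or more. In 3XTg-AD the same steps gave 1320, 1662, 1670 and 2067 CPM (1928 to 2213). The 2 middle steps of 3XTg-AD did not separate, and the top steps of the libraries overlapped in their intervals. The isomerases went from 517 to 817 CPM in wildtype and from 630 to 1025 CPM in 3XTg-AD, from the lowest step to the highest. The lectins went from 186 to 356 CPM and from 206 to 322 CPM.

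The translocation genes went from 2161 to 2658 CPM in wildtype and from 2220 to 2449 CPM in 3XTg-AD between the end steps. The sensors and factors stood at 275, 280, 287 and 412 CPM in wildtype, highest in the top step, and at 311, 309, 297 and 337 CPM in 3XTg-AD. Degradation genes stood at 335, 391, 400 and 368 CPM in wildtype and at 364, 421, 442 and 332 CPM in 3XTg-AD, highest in the third step of each library. Steps of Prf1 gave the folding chaperones 1182, 1353, 1693 and 1996 CPM in wildtype and 1341, 1602, 1747 and 2266 CPM in 3XTg-AD. Degradation genes were at 325, 370, 432 and 406 CPM in the Prf1 steps of wildtype and at 346, 410, 460.4 and 378 CPM in those of 3XTg-AD, again highest in the third. For degradation genes the interval of the third step overlapped that of the second in both splits and both libraries.

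**Figure D3:**
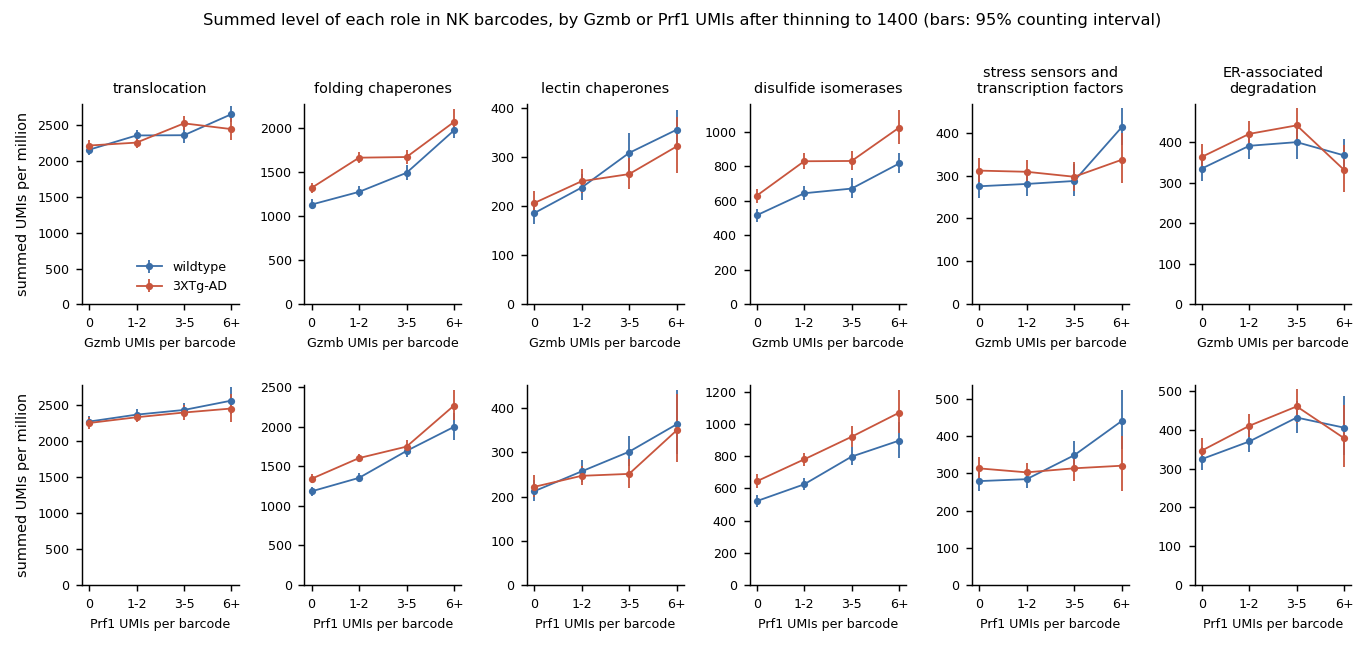
Summed level of each role in NK barcodes, in CPM, by the number of Gzmb (top) or Prf1 (bottom) UMIs in the barcode after thinning to 1400, for each library, with 95% counting intervals. Folding chaperones and disulfide isomerases lie higher in the top step than at 0 UMIs in both libraries and for both genes. Degradation genes are highest in the third step, whose interval overlaps that of the second.

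The barcodes were also split on both genes at once. The 15 folding, lectin and isomerase genes summed to 1693 CPM (1597 to 1794) in wildtype barcodes low in both and 3303 CPM (3167 to 3443) in those high in both. Barcodes low in Gzmb and high in Prf1 (n = 52) gave 2259 CPM (2032 to 2504), and those high in Gzmb and low in Prf1 (n = 63) gave 2273 CPM (2086 to 2473). In 3XTg-AD the 4 sets gave 1963, 2719 (n = 62), 2645 (n = 70) and 3222 CPM. The translocation genes ran from 2203 CPM in the double-low to 2552 CPM in the double-high barcodes of wildtype, and from 2181 to 2468 CPM in 3XTg-AD.

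Across thinned NK barcodes the summed 37 genes had a Spearman rho of 0.24 with Gzmb in wildtype (1363 barcodes) and 0.14 in 3XTg-AD (1440 barcodes), and of 0.19 and 0.12 with Prf1. All points of a library share its preparation and were brought to 1 depth, yet the depth before thinning itself had a rho of 0.17 and 0.08 with Gzmb. Gzmb and Prf1 had a rho of 0.40 and 0.32 with each other. For single genes the values were weak in these sparse counts and are no finding: the highest with Gzmb were 0.14 for Sdf2l1 in wildtype and 0.11 for Hspa5 in 3XTg-AD, and with Prf1 0.15 and 0.14, both for Hspa5. The median over the 28 genes was 0.06 and 0.04 with Gzmb, against 0.00 over all genes. Folding chaperones and isomerases had a rho of 0.17 and 0.19 with each other, and sensors with degradation genes 0.07 and -0.01.

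The genes with ERSE, whose windows are given above, were set beside those without it in the Gzmb split. Of the 8, 7 were measured, with a median ratio of 1.77 in wildtype (1.19 to 1.95) and 1.45 in 3XTg-AD (1.01 to 1.77). All 7 are folding, lectin or isomerase genes, a set with median ratios of 1.75 in wildtype and 1.43 in 3XTg-AD. The medians of the 7 thus lay close to those of the whole set. Dnajb11, Sdf2l1, Pdia3, Pdia4 and P4hb are also in this set, with promoters that lack the element. Genes with and without it were not compared inside these roles, so the part of element and role was not tested. The 22 genes whose RefSeq promoters lacked it had medians of 1.27 over 16 measured (0.996 to 2.31) and 1.18 over 18 measured (0.786 to 1.62). The ranges overlap: Dnajc3 holds the element and stood at 1.19 and 1.01, while Sdf2l1 and Xbp1 lack it in this window and had the widest ratios in wildtype. In the Prf1 split the medians were 1.55 against 1.42 in wildtype and 1.28 against 1.23 in 3XTg-AD. Between the libraries in all NK barcodes, the 8 genes with ERSE had a median ratio of 1.20 (0.915 to 1.30) and 21 without it 1.03 (0.729 to 1.25). These ranges run from the lowest gene to the highest, and the members were not chosen by promoter.

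Other ER genes, from 6 lists that leave out the 37, were compared along the Gzmb split too. Of 136, 70 were measured in wildtype, with 11 higher and 1 lower and a median ratio of 1.17, and 79 in 3XTg-AD, with 2 higher and 2 lower and a median of 1.11. Over all genes 6.56% were higher and 6.15% lower in wildtype, and 2.42% and 3.74% in 3XTg-AD. The 3XTg-AD counts are thus near the background. Fkbp2, an ER prolyl isomerase, was at 2.50 (1.87 to 3.39) in wildtype. Rpn1, of the oligosaccharyltransferase, was at 1.81 (1.43 to 2.29). Kdelr2, a receptor that returns ER chaperones from the Golgi, was at 1.92 (1.41 to 2.61) in wildtype and 1.51 (1.13 to 2.02) in 3XTg-AD. Bcl2l11, which encodes the death protein BIM, was lower at 0.543 (0.366 to 0.796) in wildtype. In 3XTg-AD, Cebpg was at 1.56 (1.14 to 2.15), Ngly1 at 0.524 (0.349 to 0.774) and the thioredoxin-domain gene Txndc5 at 0.650 (0.504 to 0.836). In the Prf1 split 9 of 71 were higher and 1 lower in wildtype, and 5 of 75 higher and 2 lower in 3XTg-AD. Over all genes 5.71% were higher and 4.25% lower in wildtype, and 3.42% and 2.67% in 3XTg-AD. Bcl2l11 was among the lower genes of the Prf1 split in both libraries, at 0.461 (0.304 to 0.685) and 0.646 (0.440 to 0.938).

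Since Gzmb was lower in the 3XTg-AD library, the libraries were also compared within shared ranges of Gzmb UMIs. In barcodes with 0 UMIs, 1 of 28 genes was at least 1.5-fold higher in 3XTg-AD, where 3.42% of all genes were higher and 1.78% lower. It was Xbp1, with 58.8 CPM in wildtype and 90.0 CPM in 3XTg-AD, a ratio of 1.53 (1.16 to 2.04). With 1 to 2 UMIs, 2 of 30 were higher and 1 lower, where 4.39% and 1.81% of all genes were. Hsp90b1 went from 375 to 587 CPM, 1.56 (1.40 to 1.74), Pdia6 from 117 to 183 CPM, 1.57 (1.29 to 1.91), and Ern1 from 47.6 to 23.4 CPM, 0.492 (0.321 to 0.745). With 3 or more UMIs, 0 of 30 passed in either direction, where 4.73% and 3.29% did. The heat shock list stood at 896 CPM in wildtype and 1676 CPM in 3XTg-AD barcodes with 1 to 2 Gzmb UMIs. Among barcodes with no UMI of Hspa1a or Hspa1b, the log2 ratios were 0.53 for Hsp90b1, 0.51 for Pdia6 and 0.54 for Xbp1, against 0.65, 0.65 and 0.61 in all barcodes, all 3 then just under 1.5-fold, and no gene was higher in any range. Hsp90b1 and Pdia6 were also under it with thinned sums, with Leiden classes and without dividing barcodes. Xbp1 was under it with thinned sums, with the mean over barcodes, with either changed ILC1-like gate and with the median of all genes set to 1. Over all settings the log2 ratios stayed between 0.53 and 0.66 for Hsp90b1, 0.51 and 0.65 for Pdia6, and 0.41 and 0.75 for Xbp1.

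The median log2 ratio of the measured genes was 0.24, 0.16 and 0.04 from the lowest range to the highest, against 0.05, 0.05 and 0.04 for all genes. With thinned sums it was 0.08, 0.17 and 0.02, against 0.05, 0.05 and 0.03 for all genes. The lowest and middle ranges then changed order. Hspa5 was at 1.22 (1.03 to 1.45), 1.497 (1.29 to 1.75) and 1.06 (0.934 to 1.20). The isomerase P4hb was even across the ranges, at 1.25, 1.22 and 1.28. In the highest range Gzmb still differed, at 6886 CPM in wildtype and 3425 CPM in 3XTg-AD, so this range did not match the libraries for Gzmb. Whether the ratio differs between ranges has no test here.

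**Figure D4:**
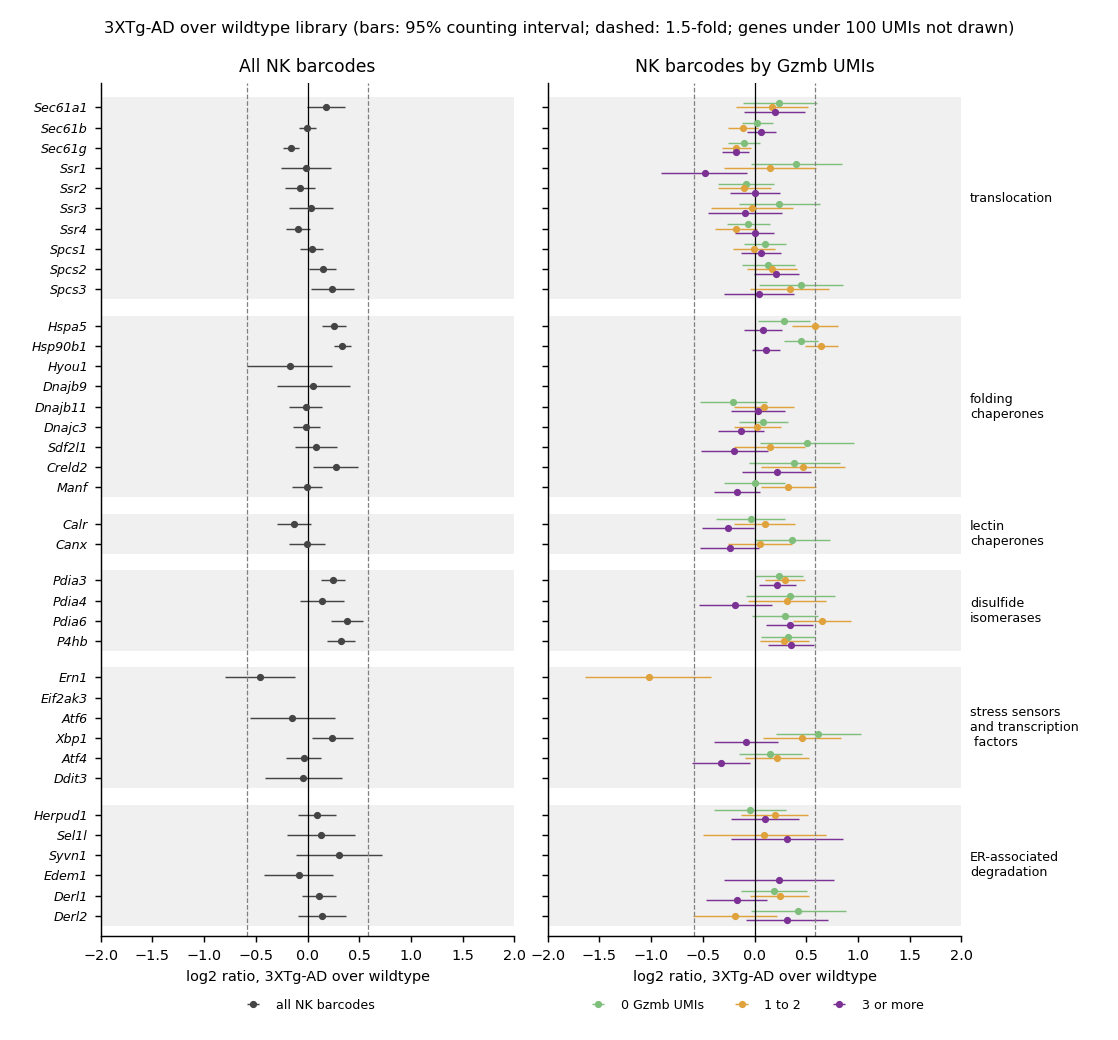
The log2 ratio of 3XTg-AD over wildtype for each gene in all NK barcodes (left) and within 3 ranges of Gzmb UMIs (right), with 95% counting intervals and dashed lines at 1.5-fold. No gene in the left panel passes a dashed line, and in the right panel Hsp90b1, Pdia6, Xbp1 and Ern1 do so in 1 range each.

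ILC1-like barcodes were poor in Prf1 but not in Gzmb. Gzmb stood at 4082 CPM in wildtype ILC1-like barcodes against 3022 CPM in NK barcodes, and at 1436 against 1579 CPM in 3XTg-AD. Prf1 stood at 267 against 1326 CPM and at 110 against 1249 CPM. The summed 37 genes stood at 4803 CPM in wildtype and 4768 CPM in 3XTg-AD, against 5336 and 5634 CPM in NK barcodes. The folding chaperones summed to 1127 and 1056 CPM against 1408 and 1582 CPM in NK barcodes.

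In wildtype 1 of 35 genes was at least 1.5-fold higher in ILC1-like barcodes and 8 lower, where 6.97% of 5578 genes were higher and 22.8% lower. In 3XTg-AD 0 of 36 were higher and 11 lower, where 7.62% of 5670 were higher and 29.0% lower. These shares are near the background. The median log2 ratios of -0.27 and -0.29 likewise lay near the -0.20 and -0.28 of all genes, so a gene at 0.82-fold in 3XTg-AD stood at the median of its comparison. With that median set to 0, the counts were 2 higher and 4 lower in each library, with medians of -0.07 and -0.01.

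Pdia6, Herpud1, Edem1, Derl1 and Derl2 were lower past 1.5-fold in both libraries, which is 5 of the 8 and 5 of the 11. The share of all genes lower in both is not given here, so this overlap is not read as a trait of these genes. Pdia6 had 62.9 CPM in ILC1-like against 136 CPM in NK barcodes of wildtype, 0.461 (0.322 to 0.642), and 92.8 against 178 CPM in 3XTg-AD, 0.522 (0.373 to 0.712). Herpud1, a stress-induced part of the degradation complex, was at 0.548 (0.370 to 0.784) and 0.480 (0.302 to 0.729). Derl1 was at 0.545 (0.383 to 0.754) and 0.572 (0.393 to 0.808). Edem1 rested on 10 and 8 ILC1-like UMIs. In barcodes of 2000 to 4000 UMIs its log2 ratio turned to 0.15 in wildtype, and that of Dnajb11 to 0.25 in 3XTg-AD.

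Ssr4 lay on the other side, with 379 against 283 CPM in wildtype, 1.34 (1.16 to 1.55), and 373 against 265 CPM in 3XTg-AD, 1.41 (1.19 to 1.65). Atf6 alone passed upward, in wildtype, on 26 ILC1-like UMIs: 44.2 against 23.0 CPM, 1.92 (1.20 to 2.97). In 3XTg-AD it was at 1.17 (0.564 to 2.18) on 11 UMIs. Xbp1 was at 0.754 in wildtype and 0.471 (0.289 to 0.729) in 3XTg-AD, and Hsp90b1 at 0.715 and 0.566 (0.475 to 0.670). Sec61a1, Pdia4 and Hyou1 were the others lower in wildtype, and Creld2, Dnajb11, Atf4 and Syvn1 in 3XTg-AD. Eif2ak3 was under 100 UMIs in both libraries, and Syvn1 in wildtype. Calr and Canx had ratios from 0.902 to 1.12 in both libraries. Of the other ER genes, 4 were higher and 25 lower of 94 in wildtype and 4 higher and 29 lower of 94 in 3XTg-AD. Over all genes 6.97% were higher and 22.8% lower in wildtype, and 7.62% and 29.0% in 3XTg-AD. The counts of lower genes are near these shares. Selenos, of the degradation complex, was at 0.442 (0.318 to 0.599) and 0.374 (0.240 to 0.557).

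**Figure D5:**
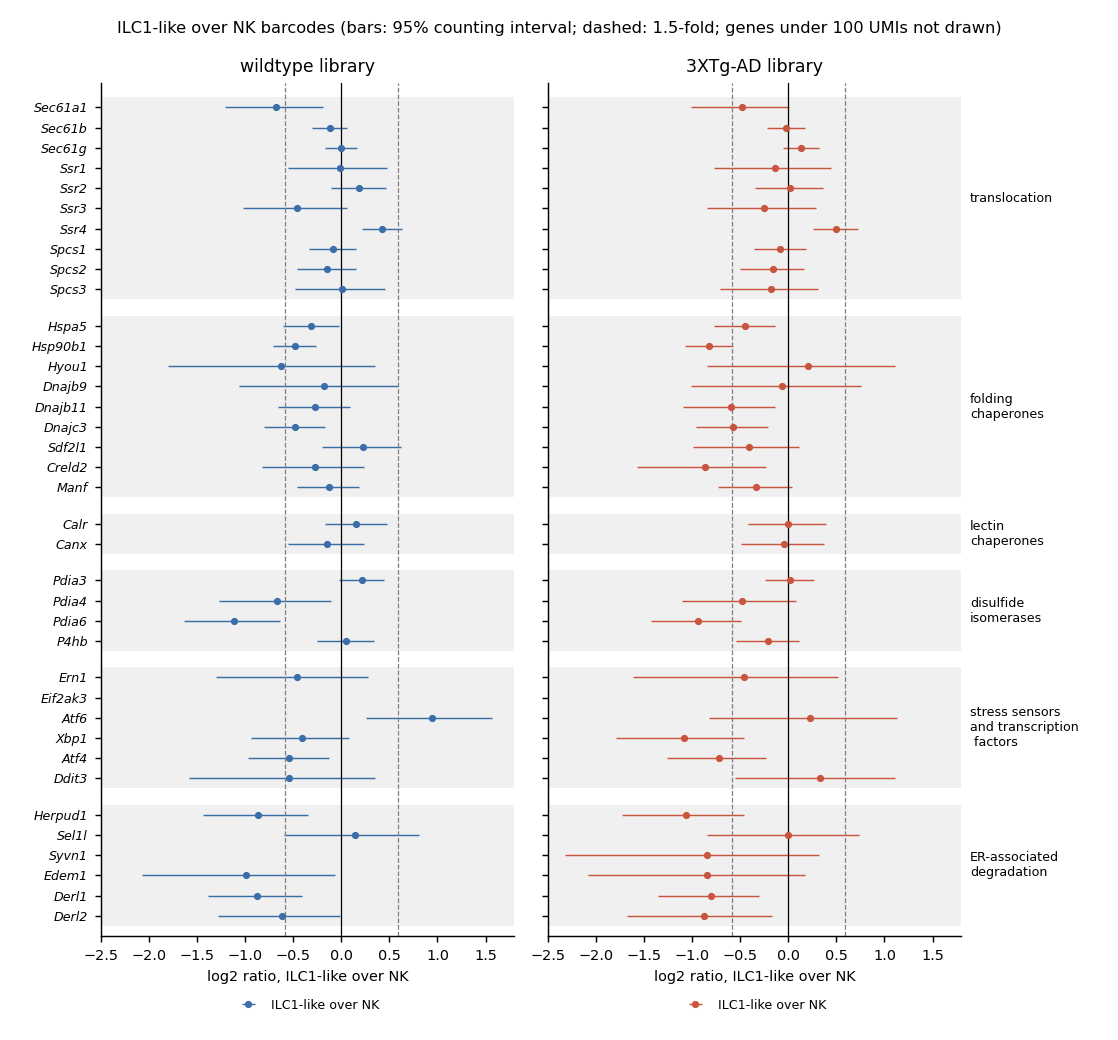
The log2 ratio of ILC1-like over NK barcodes for each gene in the wildtype (left) and 3XTg-AD (right) library, with 95% counting intervals and dashed lines at 1.5-fold. Most genes lie left of 0, as most genes of the libraries did, and Ssr4 lies right of it in both.

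Depth and ribosomal share moved with these classes. Median ribosomal protein shares per barcode were 29.8% in wildtype and 30.5% in 3XTg-AD ILC1-like barcodes against 17.7% and 15.8% in NK barcodes. With the gate applied to thinned UMIs, where depth does not help a barcode pass, 1 gene was higher and 8 lower in wildtype, and 0 higher and 13 lower in 3XTg-AD. Over 96 and 79 thinned ILC1-like barcodes the summed genes had a rho of 0.095 and 0.084 with Gzmb and of 0.22 and 0.10 with Prf1, and depth before thinning one of 0.27 and 0.21 with Gzmb. These are weak values over few barcodes and no finding.

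Between the libraries, 0 of 27 genes with at least 50 UMIs differed by 1.5-fold in ILC1-like barcodes, where 5.12% of 2716 genes were higher in 3XTg-AD and 6.11% lower. The other 10 genes were under that minimum. The median log2 ratio was 0.00, and all 27 intervals held 1. Counts of 1 to 3 genes came with several other settings, among them 1 with doublets kept, 2 with classes from Leiden clusters and 3 with a minimum of 20 UMIs. Pdia6 was at 1.48 (0.925 to 2.36), from 62.9 to 92.8 CPM, and Sdf2l1 at 0.683 (0.427 to 1.07), from 100 to 68.5 CPM. Of the other ER genes, 5 of 54 were higher and 1 lower. The stress-induced Ddit4 was at 1.69 (1.26 to 2.27) and Tapbp, of the class I loading complex, at 0.650 (0.458 to 0.912).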

How the data were processed

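The authors deposited 1 matrix of UMI counts per library, a gene by barcode, without normalization. Cell Ranger 3.1.0, STAR and mm10 are named per the submitters' processing notes, and the matrix headers carry 3.0.2 per the file headers, with the annotation release not given in the sources used here. Libraries held 5559995 (wildtype) and 5468455 (3XTg-AD) UMIs.

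Barcodes with under 300 genes, over 10% mitochondrial UMIs, or called doublets by Scrublet (scanpy 1.11.5, Python 3.11.15) were left out, keeping 1649 and 1663. Of these, 40 and 52 with markers of other cells (3 UMIs, or 1% for neutrophil or erythroid genes) and 38 and 15 in neither class were not used. Counts were summed over barcodes and scaled to CPM. Ratios have exact conditional 95% intervals (scipy 1.17.1), which cover counting error only. Genes needed 100 UMIs over both sums, or 50 between ILC1-like barcodes, and 1.5-fold counted as called. NK barcodes of the 2 libraries were also compared within shared ranges of Gzmb UMIs (0, 1 to 2, 3 or more, after thinning). Ratios and intervals were tested on simulated data with known folds.

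The 37 genes and all lists were chosen with earlier results of these data known. All 37 are accounted for; of other ER genes, up to 3 higher and 3 lower per comparison were named, those past 1.5-fold with intervals farthest from 1, and not all are printed. Gates, minimum, scaling, thinning, doublets and splits were varied, and 4 alternatives (thinned gate, 2000 to 4000 UMIs, without the Gzmb-led cluster, another thinning) were added after seeing the data. No protein sequences were used here.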

Additional observations from a re-analysis of the deposited data

How the results depend on the processing

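Medians of the 37 genes stayed inside the counting interval of the median gene in all 173 cases (a comparison and a setting). That interval belongs to the 1 or 2 middle genes and is wide, so medians could shift inside it. For ILC1-like over NK in 3XTg-AD the log2 median went from -0.29 to -0.01 with the median ratio of all genes set to 1. For Prf1 in wildtype it went from 0.52 to 0.29 at the tertiles. Counts past 1.5-fold moved in 39 of 173. No gene passed between libraries in NK barcodes in any of the 15 settings run there. Of the genes past 1.5-fold, 2 turned direction, both in barcodes of 2000 to 4000 UMIs: Edem1 (log2 0.15, ILC1-like over NK, wildtype) and Dnajb11 (0.25, 3XTg-AD). For ILC1-like over NK in 3XTg-AD the 11 genes became 6 with the median ratio of all genes set to 1. In the Gzmb split, wildtype's 13 became 7 without the Gzmb-led cluster, and the 6 of 3XTg-AD became 3 with thinned sums, Leiden classes, 2000 to 4000 UMIs, or without that cluster. In the Prf1 split, wildtype's 10 became 6 with the median set to 1, 2 with a split at the tertiles and 2 without the cluster; the 4 of 3XTg-AD became 8 with a minimum of 20 UMIs or none, 0 at the tertiles and 1 with another thinning. Between ILC1-like barcodes the 0 became 3 with a minimum of 20 UMIs or none, 2 with Leiden classes, and 1 with thinned sums, doublets kept, or without Hspa1a or Hspa1b, dividing or interferon-high barcodes. Wider splits, quartiles taken again on the barcodes left, and fewer genes or barcodes change these counts by construction in part. Otherwise the cause was not tested. The comparison of ILC1-like barcodes at 2000 to 4000 UMIs gave no value, since none of the 37 genes reached the minimum. No paired analysis was possible because each group has 1 library and the labels carry no replicate numbers. Depth limits Eif2ak3, Hyou1, Dnajb9, Atf6, Ddit3 and Syvn1 most.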
